A study of Rattus norvegicus with 8 samples.

Results

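Genes for splicing factors and heterogeneous nuclear ribonucleoproteins (hnRNPs) were taken from 2 deposited tables of rat hippocampal neuron transcripts by their gene symbols, and 40 of the 26405 listed genes matched. They comprised 10 Hnrnp genes, 10 Srsf genes, 8 subunits of the SF3a and SF3b complexes, 10 Snrp genes and 2 U2af genes. Embryonic rat hippocampal neurons had been cultured for 10 to 14 days in microfluidic chambers, in which axons pass along fine channels to a side of their own. Soluble oligomeric Abeta(1-42), the amyloid peptide of Alzheimer disease, or its vehicle was given for 24 h to the axons alone. RNA of the axonal compartment (axons Abeta, n = 2, and axons vehicle control, n = 2) and of the cell body compartment with its neurites (soma Abeta, n = 2, and soma vehicle control, n = 2) was sequenced, so the control cultures differed from the treated ones in the agent given to their axons. The labels do not say whether duplicates were separate cultures, so the p-values reflect the spread of these samples only, and that spread may be technical.

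Splicing removes introns from pre-mRNA in the nucleus. The Sm proteins form a ring on the small nuclear RNAs and are loaded onto them in the cytoplasm. U2AF recognises the end of an intron, and SF3a and SF3b, as parts of the U2 particle, hold the branch point. SR proteins (the Srsf genes) bind exonic enhancers and recruit the splicing machinery, while hnRNPs coat the transcript, often repress exons, and in part shuttle to the cytoplasm. In neurons several hnRNPs are known to travel with mRNAs into processes, and hnRNP R is known to bind beta-actin mRNA in motor axons. The proteins are mainly nuclear, whereas the values here are levels of their mRNAs.

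Each table holds, per gene, a mean normalized count taken across a compartment's 4 libraries (read counts divided by the authors' library size factors), a log2 fold change between treatments with its standard error (SE), and p-values. No column names the treatment in the numerator. The 2 libraries for which a positive log2 fold change means a higher level are therefore called the positive side, and the other 2 the negative side, in each compartment. Counts of the single libraries were worked out from the deposited means, which carry 15 digits, and all 40 genes had 1 solution in each table. The libraries could not be tied to sample titles, so they are named by side and number (1 has the larger size factor), and they entered no test between treatments. Reads recovered per library ran from 231854 to 425420 in axons. In soma they ran from 262971 to 3656302, because each side held a deep library (size factors 2.97 and 3.74) and a shallow one (0.297 and 0.320). The 40 genes together took 508 to 1711 reads per axonal library, and intervals on counts given here cover counting error only.

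All 40 genes had axonal reads, and 26 had an axonal mean normalized count of at least 10. In soma 38 reached a mean of 10 and 16 a mean of 100. The genes below 10 in axons were mostly the small Sm and U1 or U2 particle proteins and 4 SR genes (Srsf7, Srsf9, Srsf10 and Srsf12). Of the 5 Sm core genes only Snrpb reached 10, and of the 3 genes for proteins of the U1 and U2 particles (Snrpa, Snrpa1, Snrpb2) none did. The symbols Snrpd2l and Snrpep2, copies of Sm genes, were close to 0 in both compartments (axonal means of 0.60 and 0.26). Levels of different genes are not ranked against each other, since gene lengths were not given. Tubb3, the neuronal tubulin, had mean normalized counts of 111 in axons and 967 in soma. Map2, a microtubule protein of dendrites and cell bodies, had 112 and 1366. Gfap, the astrocyte filament protein, had 823 and 3360, so markers of glia and dendrites were present in the axonal samples. In such bulk samples, fewer cells of a type and less RNA per cell cannot be told apart.

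None of the splicing genes changed between treatments in axons by the authors' test. An adjusted p was deposited for 4 of them (Hnrnpf, Hnrnpu, Hnrnpul1 and Sf3b1), because DESeq2 gave none to genes with an axonal mean under 44.8, and 0 of those 4 were under 0.05, beside 23.0% of the 1321 genes with an adjusted p (8.78% with a positive fold change). By the deposited unadjusted p of DESeq2, 0 of 40 were under 0.05, where 4.45% of all genes with reads and 9.25% of those with a mean of at least 10 were. The deposited log2 fold change was above 0 for 30 of the 40 genes (75%), with a median of 0.41 and a range from -0.94 to 1.43. The same share was 43.7% over all genes with axonal reads (median -0.13), 57.7% over genes with an axonal mean of at least 10 (median 0.15) and 76.6% over genes with somatic means of 100 or more (median 0.44). Among the 16 splicing genes with such a somatic mean, 14 were above 0 (87.5%) and the median was 0.78. Set against that shift of 0.44, 20 of the 40 genes lay above it and the rest below. The errors were wide: SEs ran from 0.50 to 1.06 in the authors' deposited table, 29 genes were within 1 SE of 0 and all 40 within 2 SE.

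**Figure D1:**
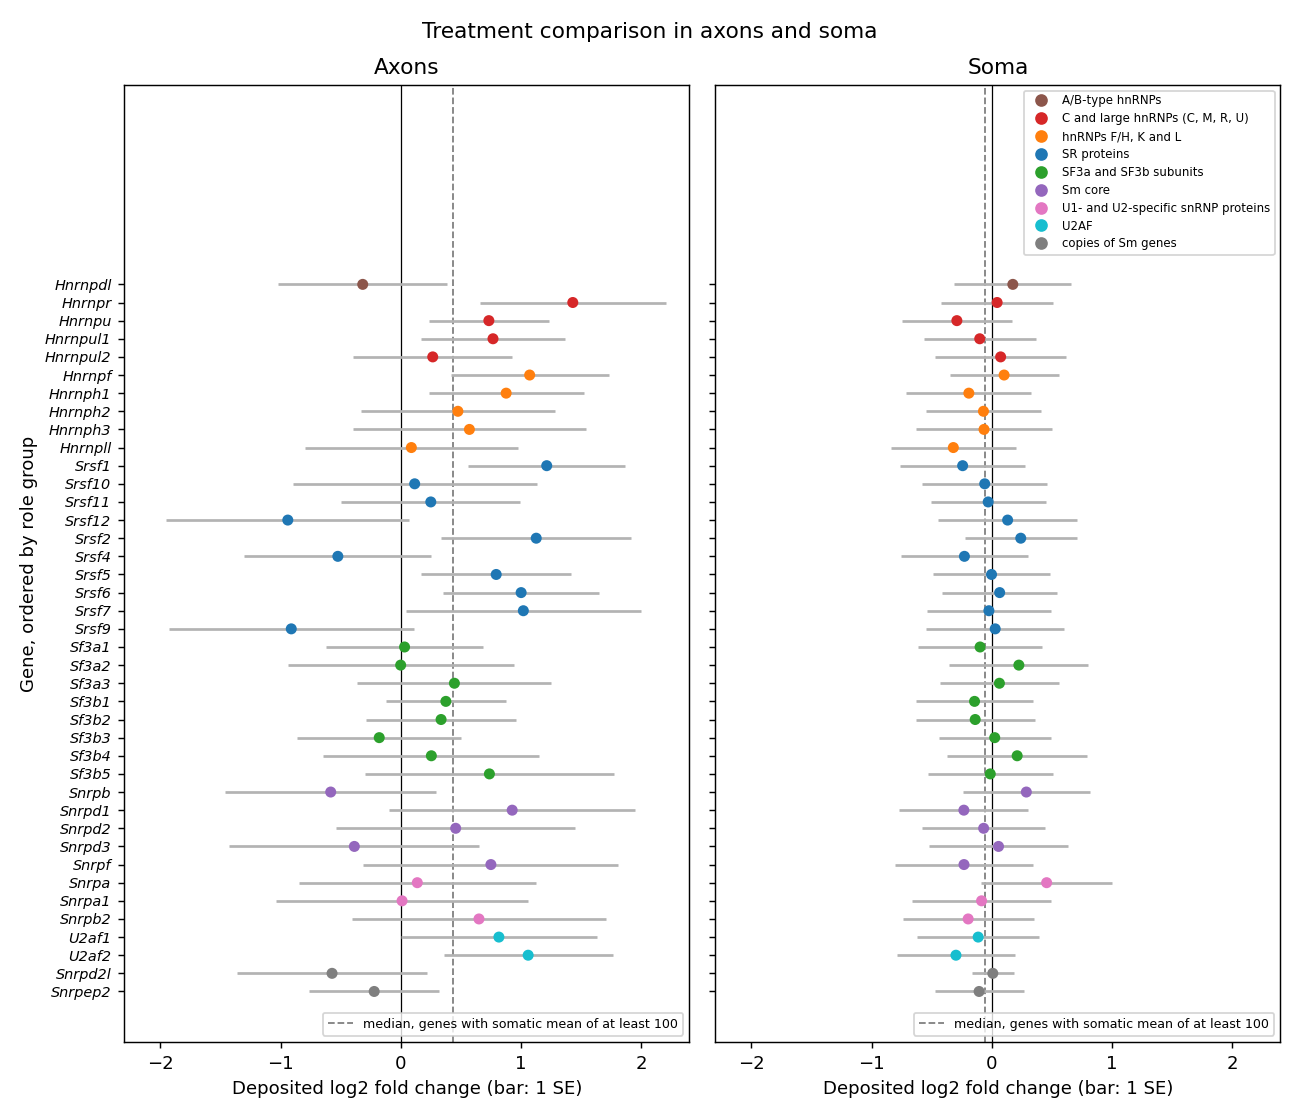
Log2 fold change between treatments in the authors' deposited tables (x axis) for the 40 genes (y axis, ordered and coloured by role), in axons on the left and soma on the right. Bars are 1 SE and the dashed line is the median of genes with somatic means of 100 or more, 0.44 in axons and -0.06 in soma. Axonal values run from -0.94 to 1.43 and somatic values from -0.32 to 0.46. The compartments were normalized separately, so the widths of these ranges are not compared.

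The 4 genes for large nuclear hnRNPs among the 40 each lay higher on the positive side, without passing the test. Hnrnpu, which codes for a chromatin- and RNA-binding scaffold protein, had 102.8 and 147.9 normalized counts in the positive axonal libraries 1 and 2, and 64.1 and 82.4 in the negative ones. Both positive libraries were above both negative ones. The log2 fold change in the authors' deposited table was 0.73 (SE 0.50, 95% interval -0.25 to 1.71), with a DESeq2 adjusted p of 0.327. Hnrnpul1, coding for a U-like protein that also takes part in the DNA damage response, had 52.9 and 68.1 in the positive libraries against 27.3 and 40.5 in the negative ones. Its sides did not overlap either, and the authors' deposited table gave a log2 fold change of 0.77 (SE 0.60, 95% interval -0.41 to 1.94, DESeq2 adjusted p of 0.400). Hnrnpr, for the protein known from motor axons, had 25.7 and 42.3 against 6.3 and 14.9. This was the highest log2 fold change of the 40 in the authors' deposited table, 1.43 (SE 0.77), with an unadjusted DESeq2 p of 0.064 and no adjusted p. Its log2 ratio of reads ran from 1.17, without negative library 1, to 2.34, without negative library 2. The remaining gene of the group, Hnrnpul2, had 37.8 and 32.9 against 25.2 and 32.4, sides that were only just apart, and a deposited log2 fold change of 0.27 (SE 0.66).

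Hnrnpf and Hnrnph1, whose proteins bind runs of G in introns and exons, also had sides that did not overlap. For Hnrnpf the positive libraries had 33.3 and 92.3 normalized counts and the negative ones 31.5 and 23.0. Positive library 1 was thus close to the negative side, and library 2 stood alone. The authors' deposited table gave 1.07 on the log2 scale (SE 0.66, 95% interval -0.22 to 2.36, DESeq2 adjusted p of 0.267). Without positive library 2, the log2 ratio of reads between sides was 0.28. Hnrnph1 had 45.4 and 72.8 against 42.0 and 17.6, and a deposited log2 fold change of 0.88 (SE 0.64). With each library left out in turn, its log2 ratio of reads between sides ran from 0.49, without negative library 2, to 1.72, without negative library 1. Their relatives overlapped between sides: Hnrnph2 had 20.4 and 24.3 against 7.4 and 23.0. Hnrnpll, for a relative of hnRNP L known for splicing of CD45 in T cells, had 9.1 and 14.9 against 12.6 and 9.5. Its log2 fold change in the authors' deposited table, 0.09 (SE 0.89), was the lowest of the group. Hnrnph3 had 1.5 and 26.6 against 10.5 and 5.4, from 2 and 34 reads in the positive libraries, so duplicates of 1 side differed more than the sides did. The exact Poisson 95% intervals of those 2 values, 0.183 to 5.46 and 18.4 to 37.2, did not meet. Hnrnpdl, coding for a relative of the AU-rich element binding protein hnRNP D, had 31.7 and 33.6 against 67.2 and 16.2, with the negative libraries on either side of the positive ones. It was the 1 Hnrnp gene of 10 with a deposited log2 fold change below 0 (-0.32, SE 0.70).

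The SR genes lay on both sides of 0. Srsf1, for the SR protein best known from exonic enhancers and mRNA surveillance, had 39.3 and 70.4 normalized counts against 19.96 and 23.0. The sides did not overlap, and its log2 fold change in the authors' deposited table was 1.21 (SE 0.65, 95% interval -0.06 to 2.49) with an unadjusted DESeq2 p of 0.063, the smallest of the 40. Srsf5 had 41.6 and 68.1 against 32.6 and 27.0, and Srsf6 had 55.9 and 43.8 against 17.9 and 28.4, again without overlap. Both code for SR proteins that bind exonic enhancers. Their deposited log2 fold changes were 0.79 (SE 0.62) and 1.00 (SE 0.65). Srsf2 had a deposited log2 fold change of 1.13 (SE 0.79), but its sides overlapped: 31.0 and 65.7 against 34.7 and 2.7. Negative library 2 held 2 reads of Srsf2 and negative library 1 held 33. Srsf4 had 15.1 and 20.3 against 42.0 and 12.2, which overlapped, with a deposited log2 fold change of -0.52 (SE 0.78). Srsf11, for an SR-like protein found with U2AF, overlapped too, with 21.9 and 44.6 against 43.1 and 10.8. The 4 SR genes with an axonal mean under 10 fell on both ends in the authors' deposited table, from -0.94 for Srsf12 and -0.91 for Srsf9 to 1.02 for Srsf7. Srsf7 had 12.1 and 10.2 against 5.3 and 2.7, whereas Srsf9 had 6.0 and 0.8 against 11.6 and 6.8. The median over the 10 SR genes was 0.52.

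The 8 subunits of SF3a and SF3b had a median log2 fold change of 0.29 in the authors' deposited table. Sf3b1, coding for the large subunit that cradles the branch point and is mutated in some blood cancers, had 92.2 and 123.6 normalized counts against 94.5 and 68.9. The libraries overlapped, and the authors' deposited table gave 0.37 on the log2 scale (SE 0.50, 95% interval -0.61 to 1.36, DESeq2 adjusted p of 0.646). Sf3b2 had 56.7 and 43.0 against 26.3 and 51.3. Sf3b3 had 22.7 and 47.0 against 56.7 and 23.0, with a deposited log2 fold change of -0.18 (SE 0.68), the lowest of the complex. In both genes the 2 duplicates of a side lay further apart than the side means. Sf3a3 had the highest value among subunits with an axonal mean of at least 10, 0.45 (SE 0.81) in the authors' deposited table, with 12.8 and 29.0 against 12.6 and 16.2. Sf3a1 had 28.0 and 44.6 against 30.5 and 40.5, and Sf3b4 was the 1 of 7 subunits at that level whose sides did not overlap, with 13.6 and 10.2 against 9.5 and 9.5.

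Both U2AF genes lay higher on the positive side. U2af2, for the subunit that binds the pyrimidine tract, had 32.5 and 45.4 normalized counts against 19.96 and 13.5, and U2af1, for the subunit that reads the AG at the intron's end, had 18.9 and 25.04 against 7.4 and 14.9. In neither gene did the sides overlap. The deposited log2 fold changes were 1.06 (SE 0.70) and 0.82 (SE 0.82). Snrpb, which codes for the Sm proteins B and B′, was lower on the positive side on average, with 14.4 and 5.5 against 10.5 and 23.0 and a deposited log2 fold change of -0.58 (SE 0.88), and its sides overlapped. For the other small nuclear ribonucleoprotein genes the axonal reads were few. Of these, 5 had 0 reads in negative library 2, where 3 reads, the limit that a count of 0 allows, would be 4.05 normalized counts.

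**Figure D2:**
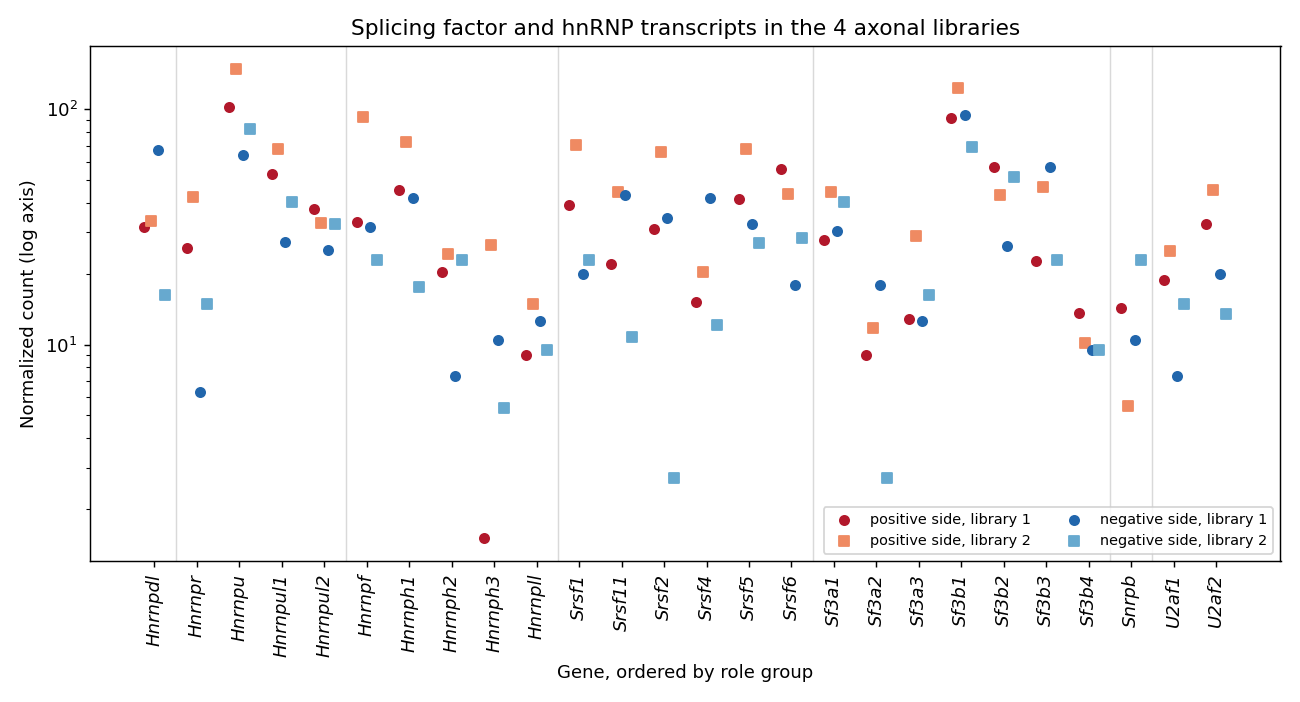
Normalized counts (y axis, log scale) of the 26 genes with an axonal mean of at least 10 (x axis, grouped by role) in the 4 axonal libraries, 1 point per library. Red and orange are the positive side, dark and light blue the negative side. For 12 of the 26 genes both positive points lie above both negative points, and for none the reverse.

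Among the 26 genes with an axonal mean of at least 10, 12 had both positive libraries above both negative ones and 0 had the reverse, 46.2% beside 30.6% (positive) and 18.9% (negative) of genes at that level, 49.5% in either direction. Restricted to genes with somatic means of 100 or more the share was 9 of 16 (56.3%) beside 48.1%, which is near the background. By role the counts were 4 of 4 large hnRNPs, 2 of 5 in the F/H and L group, 3 of 6 SR genes, 1 of 7 SF3 subunits and 2 of 2 U2AF genes, and 0 for Hnrnpdl and Snrpb. Scaled instead to the reads of genes that also had somatic reads, 9 remained, since Hnrnpf, Hnrnpul2 and Sf3b4 then overlapped. Positive library 2 was the highest of the 4 libraries in 17 of the 26 genes, against 37.3% of all genes at that level and 54.7% of genes with somatic means of 100 or more.

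Markers of other cell types differed between the same libraries. Summed over 11 astrocyte markers, the positive axonal libraries had 3632 and 4072 normalized counts and the negative ones 661 and 1063. No marker of any list was at a mean of 0 in axons. Of the astrocyte markers 10 of 11 had a deposited log2 fold change above 0, beside 57.7% of genes with an axonal mean of at least 10. A DESeq2 adjusted p was deposited for 8 of the 11, and 6 were under 0.05, beside 23.0% of all genes with one. The 10 fibroblast and meningeal markers summed to 646 and 995 against 205 and 196. Of these, 3 had a log2 fold change above 0 and 7 below, with a median of -0.10, in the authors' deposited table. The 3 above 0 (Col1a1, Col1a2 and Fbln1) were the only ones with a DESeq2 adjusted p, and all were under 0.05. The 9 neuronal markers summed to 619 and 717 against 404 and 851, with 0 of the 5 that had an adjusted p under 0.05. The 10 microglial markers had 86.9 and 34.4 against 125 and 215, and the 7 of dividing cells 63.5 and 25.04 against 78.8 and 68.9. The 10 oligodendrocyte markers had 90.7 and 86.9 against 92.4 and 49.97, the 6 endothelial ones 37.0 and 13.3 against 70.4 and 45.9, and 6 nuclear or somatic transcripts 171 and 228 against 125 and 149. The 40 splicing genes summed to 948 and 1339 against 851 and 686. The part of these cells in the splicing genes' values was not tested.

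In soma none of the 40 genes was called as changed by the authors' test. By the DESeq2 adjusted p of the authors' deposited table, 0 of 40 were called, as were 0.00% of all 18995 genes with reads. By the unadjusted p 0 of 40 were under 0.05 beside 0.0105% of all genes, and the smallest was 0.400, for Snrpa. The somatic test thus passed hardly any gene of any kind, so these counts of 0 do not show that levels were equal. The deposited log2 fold changes ran from -0.32 for Hnrnpll to 0.46 for Snrpa, with 16 above 0 (beside 45.7% of all genes) and 24 below, and a median of -0.05. Every one was within 1 SE of 0, with SEs of 0.175 to 0.583. The smallest SE was that of Snrpd2l, whose somatic mean was only 0.15, so it does not stand for a precise value. Hnrnpu, for example, had 428 and 519 normalized counts in the deep positive and negative libraries and 290 and 404 in the shallow ones. Within libraries of like depth the log2 ratio of positive to negative side had a median of -0.04 between the deep libraries, with a range from -0.73 (Snrpf) to 1.76 (Sf3a2). Between the shallow ones the median was -0.02, with a range from -1.41 (Srsf12) to 0.68 (Snrpb). No splicing gene differed 2-fold in the same direction at both depths. Sides that did not overlap were seen for 3 of 38 genes with somatic means of 10 or more (Snrpa, Snrpb and Srsf2), beside 15.7% of genes at that level.

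Whether the treatment difference itself differed between compartments was tested as the difference of both deposited log2 fold changes with their SEs (z test, adjusted over all genes with both values by the Benjamini-Hochberg method). It reached an adjusted p under 0.05 for 0 of 40 genes beside 0.0326% of 18406, and an unadjusted p under 0.05 for 0 of 40 beside 2.60%. The smallest p of the z test was that of Srsf1, 0.0802 (adjusted p of 1.00), for a difference of 1.46 (SE 0.83) between an axonal value of 1.21 and a somatic value of -0.24. No header says that both tables share a numerator, and with the sign of the somatic table turned the count was 0 as well. The z test treats both compartments as independent and their fold changes as estimated alike, and neither was tested. Deposited values could be smaller in size than the log2 ratio of reads between sides. For Sf3b5 in axons they were 0.74 and 1.07, and for Sf3a2 in soma 0.22 and 0.50. The z test is therefore only a rough guide to a difference between compartments.

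Compared with soma, splicing transcripts in axons followed the bulk of the transcriptome. Both tables were normalized separately, so the ratio of axonal to somatic mean is a description without a test. It compares each gene with itself and does not depend on gene length. For the 38 genes with somatic means of 10 or more the axonal mean was 9.83% (Snrpb2) to 55.9% (Hnrnph3) of the somatic one, with a median of 23.1%, beside 27.7% for all genes at that level. For the 16 genes with somatic means of 100 or more the median log2 ratio was -2.21, beside -2.33 for all 2683 such genes with quartiles of -2.76 and -1.84. Of the 16, 14 lay between those quartiles. Percentiles here are among those genes. Srsf1 lay below, with an axonal mean of 38.2 and a somatic mean of 352 (10.8%, percentile 9.39), and Hnrnpul1 above, with 47.2 and 138 (34.3%, percentile 85.3).

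After Srsf1 the lowest shares among the 16 were those of Hnrnpr (22.3 against 138, 16.2%), Sf3b1 (94.8 against 582, 16.3%) and Hnrnph1 (44.4 against 269, 16.5%). After Hnrnpul1 the highest were those of Sf3b2 (44.3 against 166, 26.7%), Sf3b3 (37.3 against 142, 26.3%) and Hnrnpdl (37.2 against 150, 24.8%). Neighbours in this order differed by less than the spread of the libraries: for Hnrnpr the axonal libraries alone ran from 6.3 to 42.3. The order also depended on which somatic libraries were used. Srsf1 lay at percentile 6.20 against the deep libraries alone and at 36.1, within the quartiles, against the shallow ones alone. Hnrnpul1 lay at 74.1, within the quartiles, against the deep libraries and at 88.8 against the shallow ones. Neither gene was thus outside the quartiles with both. Sf3b1 went from 24.7 (deep) to 62.1 (shallow) and Hnrnph1 from 21.2 to 78.3. Among the genes of lower level, Hnrnph3 (55.9%), Srsf4 (50.5%) and Sf3a1 (45.6%) had high axonal shares. Their percentiles were at least 87.8 against the deep and against the shallow libraries, ranked among genes with somatic means of 100 or more. The median share of that higher group was 19.7%, beside 27.7% at somatic means of 10 or more. Percentiles of genes of lower level may therefore be raised by their level. With all somatic libraries averaged, Snrpb2, Snrpd3 (12.4%) and Sf3b5 (12.7%) had low shares. Against the deep libraries alone, however, Sf3b5 lay within the quartiles (percentile 26.5), and Snrpd3 lay above the upper quartile, as given below.

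**Figure D3:**
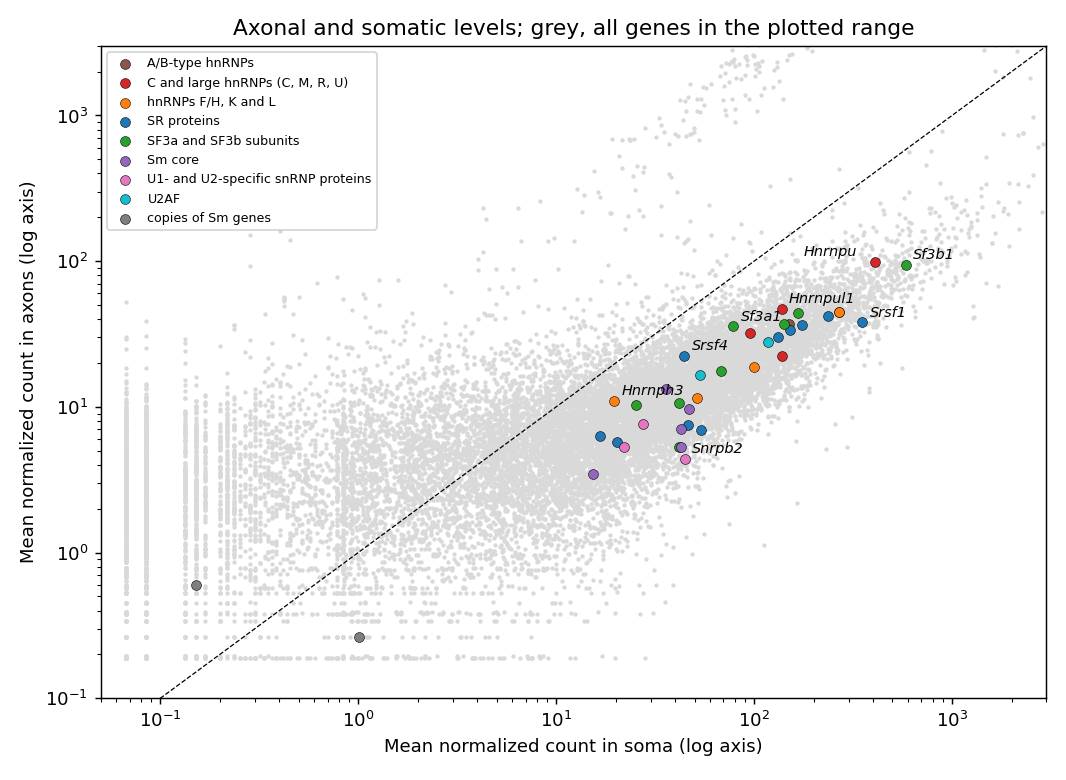
Mean normalized count in soma (x axis, log scale) and axons (y axis, log scale), with the 40 genes coloured by role over the other genes in grey. The dashed line marks equal values in both tables. The splicing genes with somatic means of 10 or more lie below the line and inside the grey cloud, with Srsf1 at 352 and 38.2 on its lower and Hnrnpul1 at 138 and 47.2 on its upper side.

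The bases upstream of the transcription start of Srsf1 and Hnrnpul1, the 2 genes outside the quartiles when all somatic libraries were averaged, are shown to give them a place in the genome (RefSeq, build GRCr8, gene strand, 5′ to 3′, with the motif CCAAT, which reads ATTGG on the other strand, in capitals, as well as the motif GGGCGG, which reads CCGCCC there). Srsf1 is read from chr10:73336248-73336497 on the plus strand and Hnrnpul1 from chr1:90390371-90390620 on the minus strand.
Srsf1: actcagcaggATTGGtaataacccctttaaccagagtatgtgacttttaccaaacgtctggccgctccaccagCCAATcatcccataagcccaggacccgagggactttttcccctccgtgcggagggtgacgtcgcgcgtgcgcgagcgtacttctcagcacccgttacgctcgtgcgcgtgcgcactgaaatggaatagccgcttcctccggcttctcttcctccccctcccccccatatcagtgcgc
Hnrnpul1: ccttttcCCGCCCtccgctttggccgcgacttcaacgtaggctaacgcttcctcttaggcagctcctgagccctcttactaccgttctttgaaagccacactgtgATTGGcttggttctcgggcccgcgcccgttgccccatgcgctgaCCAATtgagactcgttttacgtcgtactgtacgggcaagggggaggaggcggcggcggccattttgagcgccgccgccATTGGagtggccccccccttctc
The Srsf1 stretch held 2 CCAAT matches, and that of Hnrnpul1 held 3 with 1 GGGCGG match. RefSeq promoters (250 bases before to 50 after the start) were found for 36 of the 40 genes. Searched on both strands, GGGCGG was present in 24 of the 36 (66.7%) beside 34.9% of 27457 promoters. CCAAT was in 17 (47.2%) beside 37.7%, and TATAAA (other strand TTTATA) in 1 (2.78%) beside 14.3%. No motif is contained in another. A match is a description of the letters, and the mRNA levels here do not measure promoter activity.

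Levels of some splicing genes in soma differed between the deep and the shallow library of each side. Each side held a single library of each depth, so depth cannot be told apart from whatever else differed between these libraries. At least 2-fold higher in the shallow library on both sides (0.5 was added to each normalized count for this call, and the folds below are without it) were 4 of 38 genes with somatic means of 10 or more (10.5%, beside 11.1% of all such genes). Sf3a2, for a subunit of SF3a that contacts the branch site region, had 53.9 and 40.7 normalized counts in the shallow positive and negative libraries and 5.73 and 1.34 in the deep ones. These came from 16 and 13 reads in the shallow and 17 and 5 reads in the deep libraries, and the exact Poisson 95% intervals of shallow (30.8 to 87.5 and 21.7 to 69.5) and deep values (3.34 to 9.17 and 0.434 to 3.12) did not meet. Sf3b4, for the SF3b subunit next to the branch point, had 84.2 and 62.6 against 10.4 and 9.35, an 8.06-fold and 6.69-fold difference. Snrpd3, for a protein of the Sm ring, had 74.1 and 68.8 against 14.5 and 13.9 (5.12-fold and 4.95-fold), and Hnrnpul2 had 148 and 135 against 50.2 and 49.4 (2.95-fold and 2.72-fold). In each of the 4 genes the pairs of like depth lay nearer to each other than to the pair of the other depth, which their selection by that difference favours.

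In the other direction 3 of 38 genes (7.89%, beside 8.54%) were at least 2-fold higher in the deep libraries. Srsf1 had 438 and 569 in the deep against 185 and 216 in the shallow positive and negative libraries (2.36-fold and 2.64-fold), and Hnrnph1 had 354 and 413 against 135 and 175 (2.63-fold and 2.36-fold). Snrpa1, for the U2 protein A′, had 34.4 and 34.5 against 6.73 and 12.5, the latter from 2 and 4 reads. Snrpb2, at 2.00-fold and 2.50-fold without the added 0.5, was just outside the limit. Both shares were near those of all genes. Over the 38 genes the SD of the log2 deep-to-shallow ratio was 1.15 for the positive and 1.196 for the negative libraries, while the SD of the log2 ratio between sides was 0.40 among deep and 0.44 among shallow libraries. A mean over the somatic libraries of such genes therefore averages unlike values, and the axonal share of Sf3b4 was at percentile 93.4 against the deep and 12.9 against the shallow libraries, and that of Snrpd3 at 78.2 and 0.82.

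**Figure D4:**
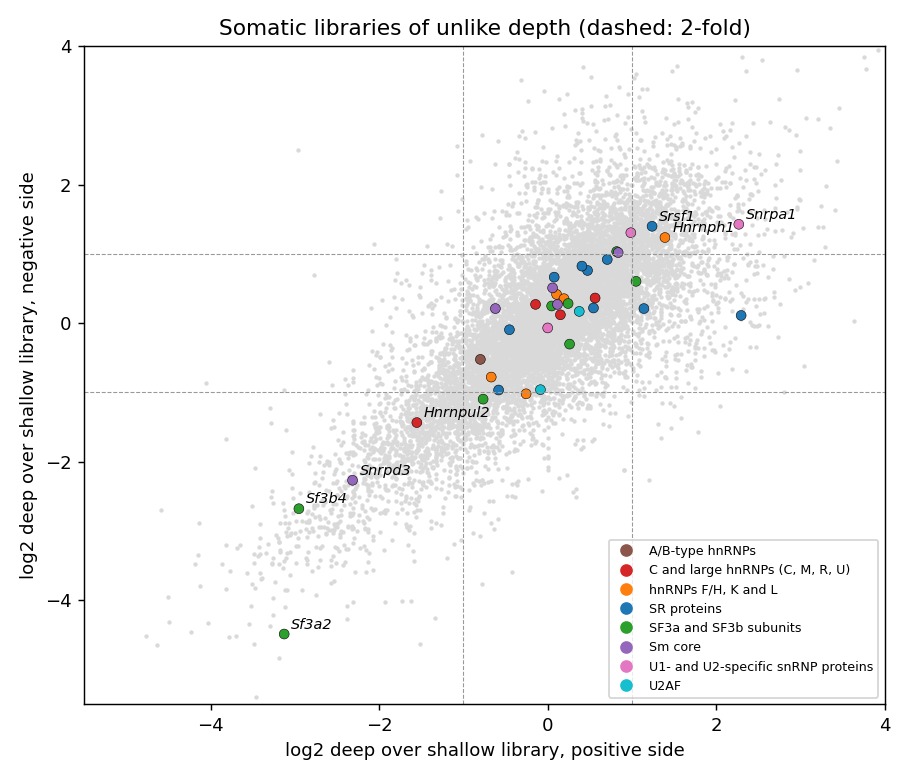
Log2 ratio of the deep to the shallow somatic library on the positive side (x axis) and the negative side (y axis), for genes with somatic means of 10 or more, splicing genes coloured by role and other genes in grey. Dashed lines mark 2-fold. Points spread along the diagonal, with Sf3a2, Sf3b4, Snrpd3 and Hnrnpul2 at the lower left and Srsf1, Hnrnph1 and Snrpa1 at the upper right.

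A further 19 identifiers carry other or no symbols in the tables but belong to the same families by their Entrez gene number in RefSeq. None was called in axons (0 of 5 with a DESeq2 adjusted p, beside 23.0% of all genes with one). A deposited log2 fold change above 0 was seen for 18 of 19, beside 43.7% of all genes with axonal reads. The median of the 19 was 0.48. Among the 14 with an axonal mean of at least 10, 14 were above 0, beside 57.7% of genes at that level and 76.6% of genes with somatic means of 100 or more. Of those 14, 5 had both positive libraries above both negative ones and 9 overlapped, beside 30.6% of genes at that level. Hnrnpa2b1, whose protein carries mRNAs with A2 response elements in oligodendrocytes and neurons, had 97.5 and 103 normalized counts on the positive side against 37.8 and 54.0, with sides apart. The authors' deposited table gave 1.05 (SE 0.53), an unadjusted DESeq2 p of 0.048 and an adjusted p of 0.157. Hnrnpk, for a poly(C)-binding protein, had 120 and 132 against 52.5 and 77.04, also apart, and a deposited DESeq2 adjusted p of 0.202 for 0.91 on the log2 scale. Hnrnpm had 37.8 and 45.4 against 18.9 and 12.2, with sides apart. Both Hnrnpc identifiers overlapped, with 42.3 and 47.7 against 7.4 and 54.0, and 41.6 and 47.7 against 7.4 and 54.0. Snrpn (0.75), Hnrnpl (0.65) and Hnrnpa1 (0.42) had DESeq2 adjusted p-values of 0.396, 0.441 and 0.665 in the authors' deposited table. U2af1l4 was the 1 below 0, at -1.54 (SE 0.92) in that deposited table. It had 3.0 and 4.7 on the positive side against 14.7 and 17.6, so its sides were apart in the reverse direction. Its axonal mean of 9.996 fell just short of 10, so it is not among the 14. Hnrnpa1 differed between the somatic libraries, with 43.8 and 41.1 in the deep and 370 and 307 in the shallow ones. Reads of these families can be shared between copies: RefSeq lists 143 pseudogenes under their symbols, 50 of them of Hnrnpa1. Both Hnrnpc identifiers had nearly the same counts, and both Srsf8 identifiers had the same values, from 2 reads. Hnrnpab also had more than 1 identifier, and the Hnrnph3 identifier shares its Entrez number with the Hnrnph3 gene of the 40. The 19 identifiers are thus not 19 separate genes. How the authors' counting split such reads is not given in the sources used here.

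The rest of the splicing machinery, from lists of known proteins, also had 0 calls, though few of its identifiers had an adjusted p. Over all genes, 23.0% of the 1321 with an adjusted p were called. The share with a log2 fold change above 0 was 43.7% of genes with axonal reads. It was 57.7% at an axonal mean of at least 10 and 76.6% at somatic means of 100 or more. Of 65 identifiers for other spliceosome proteins, 8 had a DESeq2 adjusted p and 0 passed, with 47 log2 fold changes above and 18 below 0 and a median of 0.27 in the authors' deposited table. The highest with a mean of at least 10 was Eftud2, for a GTPase of the U5 particle, with 54.4 and 74.3 normalized counts against 22.1 and 23.0 and a deposited value of 1.37 (SE 0.62, unadjusted DESeq2 p of 0.026). Prpf31, for a protein of the tri-snRNP that is mutated in retinitis pigmentosa, was the lowest at -0.81 (SE 0.86) in the authors' deposited table. Among 33 tissue-dependent splicing regulators 0 of 3 with an adjusted p passed, and 21 were above and 12 below 0. Ptbp1, the exon repressor of glia and progenitors that neurons turn off, had 52.2 and 50.1 against 18.9 and 10.8, with sides apart and a deposited log2 fold change of 1.57 (SE 0.68, unadjusted DESeq2 p of 0.021). Elavl4, for a neuronal RNA-binding protein that stabilises mRNAs, had 9.8 and 5.5 against 14.7 and 21.6 and a deposited value of -0.98 (SE 0.87). Neither had an adjusted p, and the part of the astrocyte counts in them was not tested. Among 22 hnRNP-like proteins of other names 0 of 6 passed, with 17 above 0 and 5 below, from Rbm3 at -0.54 to Taf15 at 1.01 in the authors' deposited table. For 11 SR protein kinases and import factors 0 of 1 passed and 7 were above 0. Srpk1 and Srpk2, kinases that phosphorylate SR proteins in the cytoplasm, had deposited log2 fold changes of 0.87 (SE 0.87) and -0.30 (SE 0.62).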

How the data were processed

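Rat hippocampal axons and soma (8 samples, 4 groups of 2) were compared through 2 deposited tables, 1 per compartment. The submitters' processing notes list DESeq2, SAMtools, TopHat2 and Trim Galore. Versions, genome build, annotation and counter: not given in the sources used here. Per the file headers, the authors deposited DESeq2 output: a mean normalized count (a signal: read counts over size factors), the log2 fold change and its SE, a Wald score, a p-value and a Benjamini-Hochberg adjusted p-value. The tables hold 0 columns that were left unused. The test in each compartment is the authors' own (adjusted p under 0.05), since no column holds a labelled sample on which to run edgeR.

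From these, counts per library were solved from the 15-digit means (Python 3.11.15, NumPy 2.4.6, numba 0.67.0) for means up to 1000. Solutions were unique for 100% of genes with means under 500, and for means altered at random, 0% (under 100) to 0.5% (100 to 500, soma) gave a solution, and 4.11% in the range of somatic Sf3b1 (mean 582). The procedure was tested on simulated data. The z test of the difference between compartments used SciPy 1.17.1. Named with values are genes with an axonal adjusted p, the extremes of log2 fold change per role and list (mean at least 10), and the 4 highest and 4 lowest axon-to-soma ratios (somatic mean at least 100). Others, such as genes whose sides did not overlap, that differed between deep and shallow libraries or that had other symbols, were chosen after their values were seen. The members, lists and rule were chosen with earlier results of these data known.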

Additional observations from a re-analysis of the deposited data

How the results depend on the processing

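The counts of called genes stayed at 0 in axons, in soma and for the difference between compartments under each alternative that could be run. In axons the smallest adjusted p of a splicing gene, from the DESeq2 p, was 0.594 over genes with a mean of at least 10. Over every gene with reads it was 0.993. After centring on genes with somatic means of 100 or more it was 0.679 (z test). Only the 4 splicing genes with a deposited adjusted p entered that last setting, so the others could not be called there. That centring moved the median axonal log2 fold change from 0.41 to -0.028, by its own construction, while the filter on low values and ratios of recovered reads gave 0.45 to 0.46. Leaving out each library in turn gave axonal medians of 0.33 to 0.69 and somatic medians of -0.16 to 0.15, the last without the deep negative library. The median log2 ratio of axonal to somatic mean over all 40 genes (-2.03) ranged from -2.25 to -1.90 with 1 library left out and became 0.30 when centred on genes with somatic means of 100 or more. Alternatives chosen after seeing the data, the deep or the shallow somatic libraries alone, gave -2.03 and -1.99. Genes whose axonal sides did not overlap numbered 19 over all 40 with reads, in place of 12, as the low genes then counted too. Of the genes with an axonal mean under 10, 4 had both positive libraries higher and 3 had both negative libraries higher. The share over all genes with reads was not worked out for this setting. For single genes, libraries were left out only for those named by the rule given above. Among these, the signs of Hnrnpdl, Hnrnpll, Sf3a3, Sf3b2, Sf3b3 and Srsf4 in axons each turned when a library was left out. Hnrnpdl ran from -1.03 to 0.99. Genes outside that rule can turn too. Hnrnph3, with a deposited 0.57, had 1.5 normalized counts in positive library 1, under both negative libraries (10.5 and 5.4).

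No paired analysis was possible because the deposited columns carry no replicate numbers and the recovered libraries could not be tied to titles. DESeq2, edgeR and TMM refits were not run, since the side of each recovered library was read from the deposited fold changes and not from labels. Depth limits the axonal values: 14 of 40 genes had an axonal mean under 10, and 36 of 40 had no adjusted p.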
